A study of Mus musculus with 6 samples.

Results

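Potassium channel genes were taken as all rows of the count tables whose symbol is Kcn, then letters, then a final number, which gave 92 of 54658 listed genes. Of these, 80 had 10 or more counts in 3 or more of the 6 libraries and were tested. The libraries measure RNA of whole nucleus accumbens tissue, part of the ventral striatum and of the brain's reward circuit. The Gas5 group is 3 libraries from adult C57BL6 male mice, bought at 8 weeks of age, whose accumbens received a herpes simplex p1005+ vector carrying the long noncoding RNA Gas5 with EGFP. The GFP group is 3 libraries from the same strain, sex and age given that vector with EGFP alone, so both groups had the injection, the virus and EGFP. The labels do not say which cells took up the vector, how long after injection tissue was taken, or whether several mice were pooled in a library. The p-values therefore set a difference only against the spread between these libraries, which may be technical. The series concerns Gas5 in cocaine action, but no group here received cocaine according to the labels.

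Potassium channels let potassium leave the cell and so set the resting potential, end the action potential and limit firing. Voltage-gated (Kv) channels are tetramers of pore-forming subunits, some of which (the electrically silent ones) conduct only together with others, and many carry auxiliary subunits that change gating. Inward rectifiers hold the membrane near rest, and the medium spiny neurons, the principal cells of the accumbens, are known for a strong inward rectifier current that keeps them silent between bursts of input. Among inward rectifiers, the GIRK channels are opened by G protein beta-gamma subunits below receptors for dopamine, opioids and GABA. The 2-pore-domain channels carry leak current, and calcium- or sodium-activated channels follow activity.

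More members fell than rose in the Gas5 group. With the edgeR quasi-likelihood test and Benjamini-Hochberg adjustment over all tested genes, 14 of 80 fell and 1 rose, where 3.94% of all 17693 tested genes fell and 1.46% rose, or 5.4% in either direction. In 35 members all Gas5 libraries lay below all GFP libraries and in 4 all lay above, against 13.9% and 13.7% of all tested genes, or 27.7% in either direction. The median log2 fold change (log2FC, Gas5 minus GFP) was -0.20 over the 80 members and 0.02 over all tested genes. Members past the threshold were spread over 11 chromosomes, and the 14 that fell were lower by 1.26-fold to 2.98-fold. A further 24 members had an unadjusted p under 0.05 without passing the adjusted threshold. Kcnn4 passed the count filter through the Gas5 libraries alone and so had to differ in that direction. It is counted among the 4 members whose Gas5 libraries all lay above.

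Marker genes of other cell types also differed between the groups, and each result here stands beside that difference. Values per library are given in the order A, B, C throughout. Total counts ran from 38605056 to 42524874 in Gas5 libraries and from 32359052 to 56081575 in GFP libraries. Markers of cortical excitatory neurons, a cell type outside the accumbens, had 8 of 11 tested members lower and 0 higher, with a summed level of 189 to 247 CPM in Gas5 libraries and 413 to 554 CPM in GFP libraries; Neurod1, the twelfth on the list, was at 0. Markers of medium spiny neurons had 0 of 13 called, none at 0, and sums that overlapped, at 4907 to 6315 CPM in Gas5 libraries and 5838 to 6620 CPM in GFP libraries. Oligodendrocyte sums were 1432 to 1823 CPM in Gas5 libraries and 1880 to 2046 CPM in GFP libraries, with 1 of 6 lower. Interneuron sums were 592 to 679 CPM in Gas5 libraries and 500 to 556 CPM in GFP libraries, with 1 of 7 higher and 1 lower. Most of each sum was Gad2, the higher gene, with means of 575 CPM in the Gas5 group and 464 CPM in the GFP group. The list as a whole did not follow its sum, since the median log2FC was -0.19. Vip (-1.47, the lower gene), Pvalb (-0.88), Sst (-0.28), Npy (-0.19) and Th (-0.02) were negative, and Chat (0.25) was positive. Astrocyte sums overlapped, at 562 to 679 CPM in Gas5 libraries and 516 to 600 CPM in GFP libraries, with 1 of 6 tested members higher and Gfap at 0. Microglial sums were 275 to 297 CPM in Gas5 libraries and 240 to 268 CPM in GFP libraries, with 0 of 6 called by edgeR and P2ry12 at 0. All 12811 genes that lie wholly inside other listed genes had 0 counts, because reads in overlaps are absent. Whether Neurod1, Gfap and P2ry12 are so placed was not checked, so their 0 is not read as absence of expression. Endothelial and pericyte sums were 193 to 204 CPM in Gas5 libraries and 213 to 214 CPM in GFP libraries, with 1 of 7 lower. The lower gene was Flt1, with means of 79.0 CPM in the Gas5 group and 91.1 CPM in the GFP group. The log2FC values of the others ran from -0.09 (Vtn) to 0.02 (Pecam1). Ependymal sums were 5.83 to 6.58 CPM in Gas5 libraries and 4.09 to 4.51 CPM in GFP libraries, with 1 of 2 tested higher. The part of these cells in the potassium channel results was not tested, and in bulk tissue fewer cells of a type and less RNA per cell cannot be told apart. Gas5 itself stood at 22.5, 23.2 and 23.6 CPM in Gas5 libraries A, B and C, against 18.6, 16.5 and 18.3 CPM in GFP libraries, a log2FC of 0.38 with an edgeR adjusted p of 0.0164 that became 0.0733 without GFP B and 0.0689 without GFP C.

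**Figure D1:**
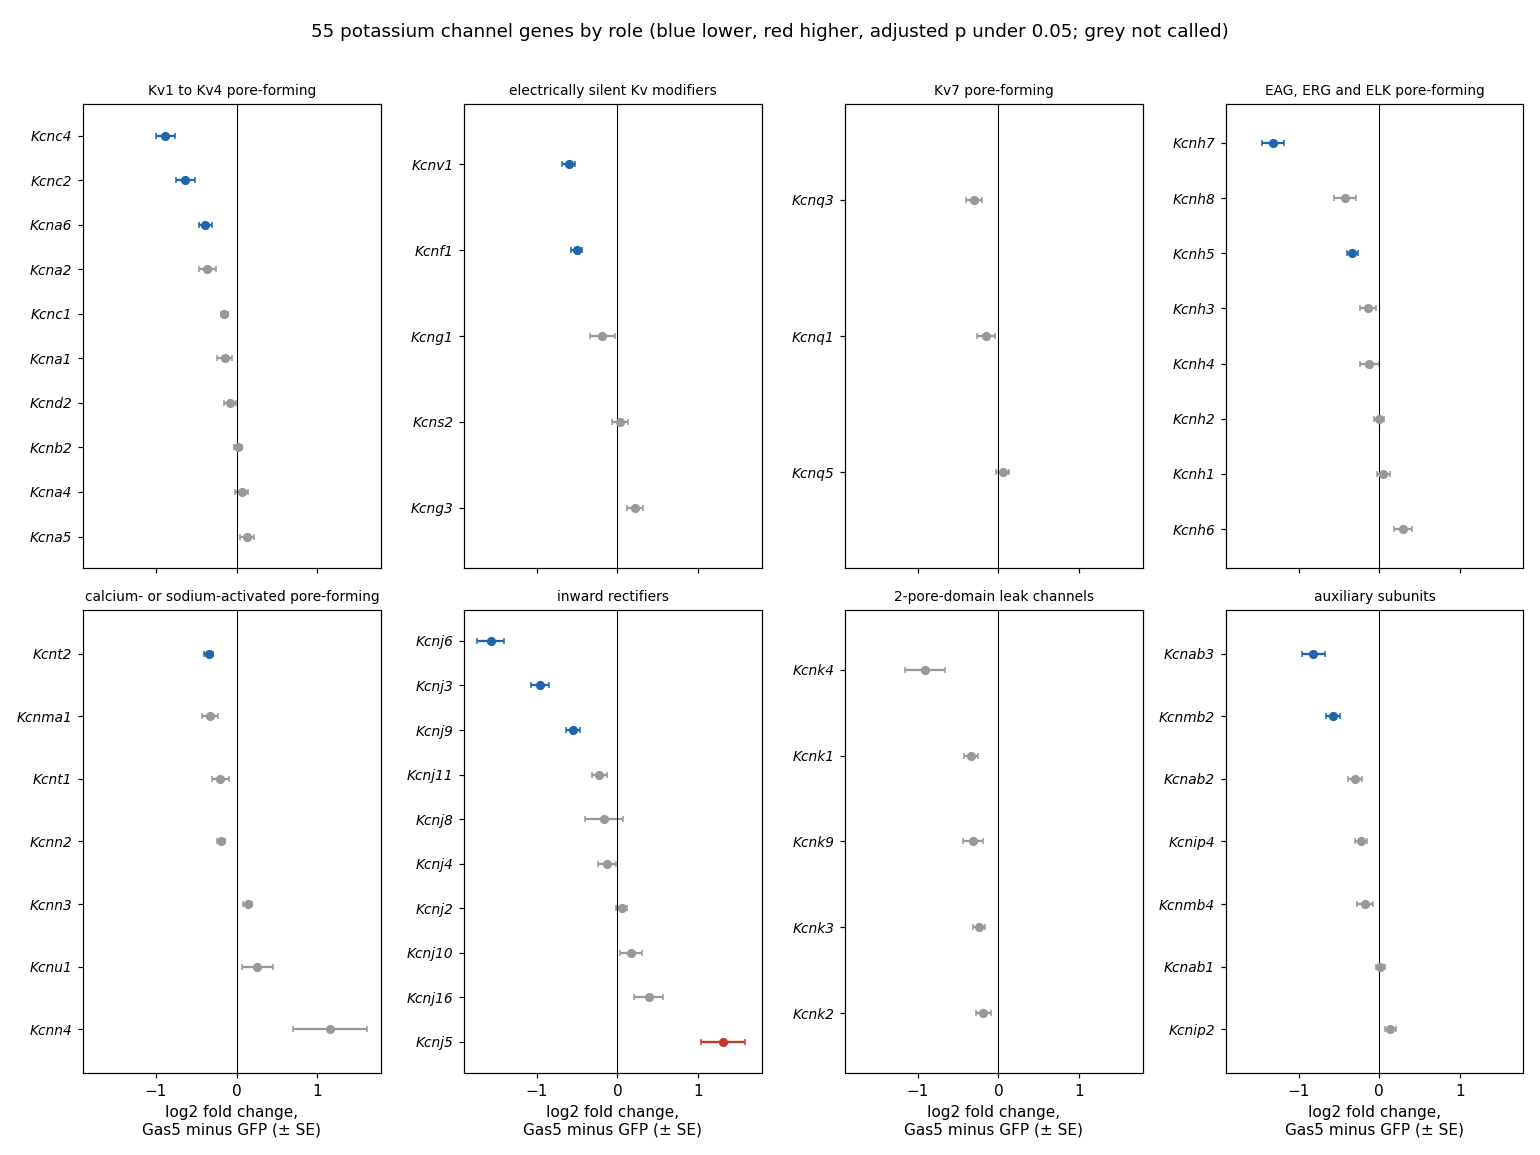
Log2 fold change (Gas5 minus GFP, bars ± SE) of each potassium channel gene described in the text, in panels by role or family of the protein. The genes in blue were lower and Kcnj5, in red, was higher at an adjusted p under 0.05; all panels share the horizontal axis, and most points lie left of 0.

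The inward rectifiers showed the widest range, with 3 of 12 tested genes lower, 1 higher and 8 not called. All 4 calls were the GIRK subunit genes. The RefSeq promoter windows of these 4 genes (GRCm38.p6, 300 bases around the annotated start, strand of the gene) are shown because the genes changed in opposite directions. Kcnj3 lies at chr2:55435720-55436019 on the plus strand, Kcnj6 at chr16:94997647-94997946, Kcnj9 at chr1:172329273-172329572 and Kcnj5 at chr9:32344295-32344594, the last 3 on the minus strand. Capitals mark each CG dinucleotide.
Kcnj3: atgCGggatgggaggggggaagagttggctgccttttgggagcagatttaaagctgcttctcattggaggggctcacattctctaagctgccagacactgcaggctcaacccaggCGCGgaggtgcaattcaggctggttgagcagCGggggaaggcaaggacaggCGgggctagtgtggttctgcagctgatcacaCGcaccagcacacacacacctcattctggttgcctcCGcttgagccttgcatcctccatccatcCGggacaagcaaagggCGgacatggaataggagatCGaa
Kcnj6: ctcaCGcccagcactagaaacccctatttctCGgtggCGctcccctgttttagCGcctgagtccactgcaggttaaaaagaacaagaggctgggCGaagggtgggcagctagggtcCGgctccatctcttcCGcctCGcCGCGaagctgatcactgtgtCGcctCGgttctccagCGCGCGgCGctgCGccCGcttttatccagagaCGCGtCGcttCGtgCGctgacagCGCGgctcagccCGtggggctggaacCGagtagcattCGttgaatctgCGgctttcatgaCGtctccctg
Kcnj9: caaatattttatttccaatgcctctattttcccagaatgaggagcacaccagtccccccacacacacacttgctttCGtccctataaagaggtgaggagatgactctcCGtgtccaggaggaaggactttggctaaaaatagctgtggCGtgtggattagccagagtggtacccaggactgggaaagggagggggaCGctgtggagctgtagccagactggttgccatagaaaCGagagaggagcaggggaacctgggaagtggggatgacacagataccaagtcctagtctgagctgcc
Kcnj5: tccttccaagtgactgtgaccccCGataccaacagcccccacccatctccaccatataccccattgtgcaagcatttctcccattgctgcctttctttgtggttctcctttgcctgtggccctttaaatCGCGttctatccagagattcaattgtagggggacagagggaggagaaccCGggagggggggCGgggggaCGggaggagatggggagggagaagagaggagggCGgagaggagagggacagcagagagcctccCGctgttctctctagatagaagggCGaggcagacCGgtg
The window of Kcnj6 held 30 CG dinucleotides, that of Kcnj9 held 5, and those of Kcnj3 and Kcnj5 held 10 each. The median was 10 over the 79 windows matched to 56 tested members and 7 over all 32851 windows. The cAMP response element TGACGTCA, searched on both strands, was in 0 of the 79 and in 1.79% of all windows, and its half-site TGACG, which the full element contains, was in 13 of the 79 and in 20.8% of all windows. Of the 4 windows printed, that of Kcnj6 held 1 half-site and the other 3 held none. The E-box CAGATG was in 13 of the 79 windows and in 17.2% of all, the Egr family site GCGTGGGCG in 0 of the 79 and in 0.612% of all, and the TATA box TATAAA in 3 of the 79 and in 13.6% of all. Kcnj9 was the 1 of the 4 with a TATAAA match.

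Kcnj6, which encodes GIRK2, the subunit that can form neuronal channels by itself, had 24.96, 21.7 and 28.5 CPM in Gas5 libraries A, B and C, against 56.1, 81.2 and 87.0 CPM in GFP libraries A, B and C. The groups lay far apart, and GFP A was the lowest of its group. The log2FC was -1.57 (standard error 0.163), or 2.98-fold lower in the Gas5 group, at an edgeR adjusted p of 0.00463. Kcnj3 encodes GIRK1, which needs a partner subunit to reach the membrane. It had 61.8, 61.8 and 79.4 CPM in Gas5 libraries and 118, 133 and 145 CPM in GFP libraries, without overlap, and was 1.95-fold lower at an adjusted p of 0.00586. Kcnj9, the gene of GIRK3, a subunit involved in channel trafficking, had 16.9, 14.4 and 16.2 CPM in Gas5 libraries and 21.1, 24.4 and 24.2 CPM in GFP libraries. It was 1.47-fold lower at an adjusted p of 0.0118.

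Kcnj5 encodes GIRK4, the partner of GIRK1 in heart muscle, and was the 1 member that rose. Its raw counts were 127, 73 and 61 in Gas5 libraries A, B and C, against 49, 33 and 24 in GFP libraries A, B and C. Scaled for depth these were 2.94, 1.71 and 1.57 CPM in Gas5 libraries and 0.881, 0.855 and 0.755 CPM in GFP libraries. All Gas5 libraries were higher, with Gas5 A well above the other two. The log2FC was 1.31 (standard error 0.274) at an adjusted p of 0.0327, and the call was lost when any GFP library was left out, the adjusted p being 0.0723 with GFP A left out, 0.128 with GFP B left out and 0.139 with GFP C left out.

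The other inward rectifiers were not called. Kcnj2 and Kcnj4, whose products carry classical strong inward rectification in neurons, had 49.5 ± 4.78 CPM in the Gas5 group and 47.6 ± 1.72 CPM in the GFP group for Kcnj2, and 123 ± 22.6 CPM in the Gas5 group and 135 ± 1.10 CPM in the GFP group for Kcnj4 (SD, n = 3 each). Their log2FC values were 0.05 and -0.13, with standard errors of 0.0705 and 0.111. Kcnj10, the main inward rectifier of astrocytes, had 95.99, 71.8 and 91.8 CPM in Gas5 libraries and 91.1, 66.7 and 73.0 CPM in GFP libraries, which overlap. Its heteromeric partner gene Kcnj16 had a log2FC of 0.39 with a standard error of 0.182 and an adjusted p of 0.265. Kcnj11, the pore of the ATP-sensitive channel, had -0.23, and Kcnj8, its vascular counterpart, had -0.17. Kcnj9 and Kcnj10 are neighbours on chromosome 1 (172320501 to 172329318 and 172341210 to 172374085), and their log2FC values were -0.55 and 0.17.

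**Figure D2:**
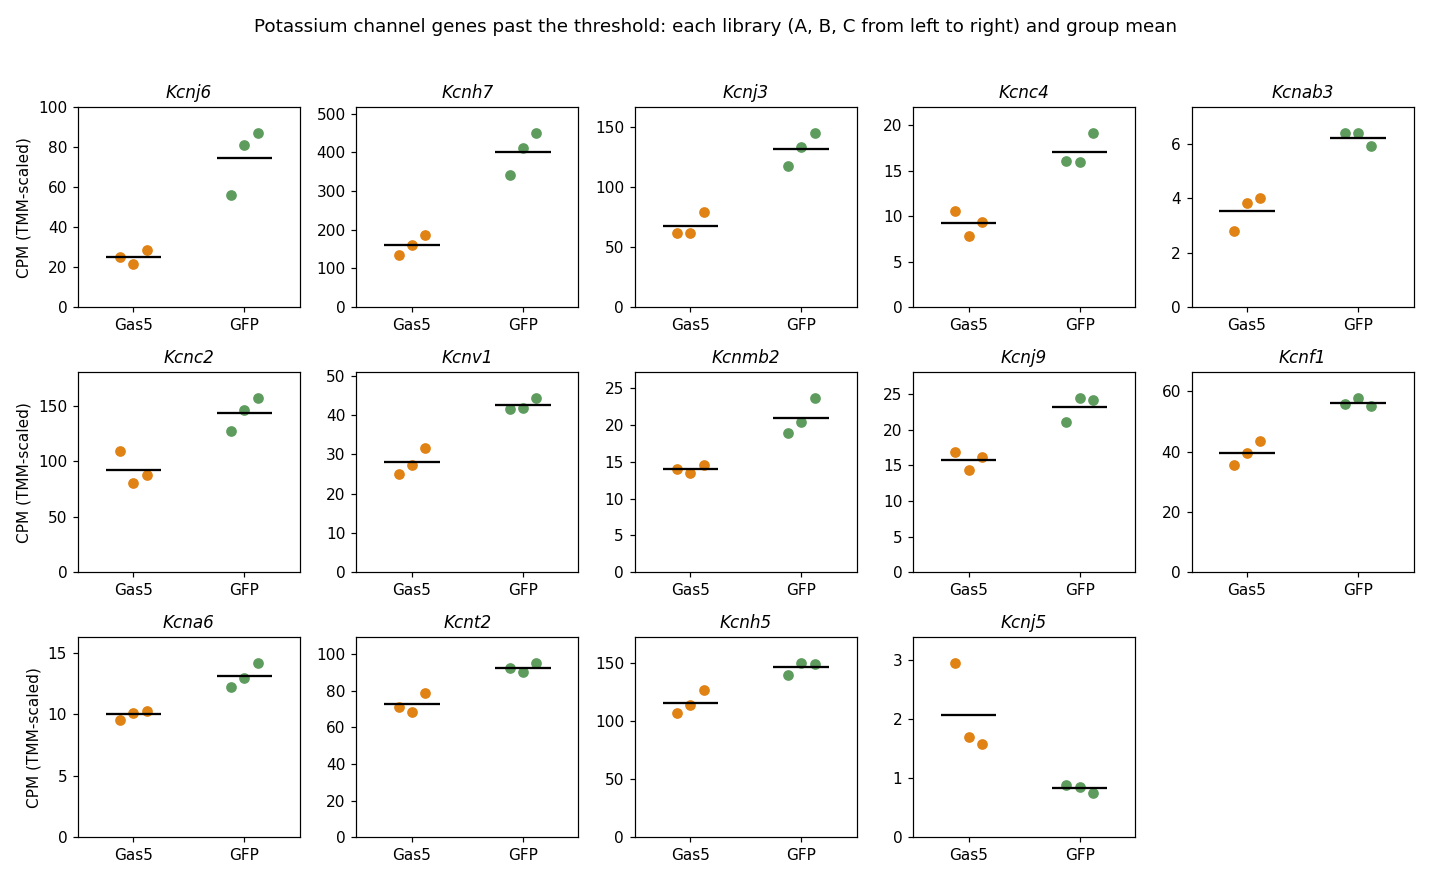
CPM (scaled by TMM, linear axis from 0) of 14 called genes in each Gas5 library (orange) and GFP library (green), with A, B and C from left to right and a bar at the group mean. In each panel the groups do not overlap; Kcnj5, last, is the gene with higher Gas5 libraries.

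Among the EAG, ERG and ELK genes, 2 of 8 fell and 0 rose. Kcnh7 encodes ERG3, a brain-expressed channel with slow deactivation. It had 136, 159 and 187 CPM in Gas5 libraries and 341, 412 and 450 CPM in GFP libraries. Each GFP library exceeded each Gas5 library by a wide margin, and the level was 2.495-fold lower in the Gas5 group, with a log2FC of -1.32, a standard error of 0.130 and an adjusted p of 0.00463. Kcnh5, an EAG channel gene, had 107, 114 and 127 CPM in Gas5 libraries and 140, 150 and 150 CPM in GFP libraries, 1.26-fold lower at an adjusted p of 0.0278. The other EAG gene, Kcnh1, had 420 ± 50.3 CPM in the Gas5 group and 405 ± 12.1 CPM in the GFP group (SD, n = 3 each) and was not called. The ERG genes Kcnh2 and Kcnh6 had log2FC values of -0.0032 and 0.29, neither past the threshold. The ELK genes Kcnh3, Kcnh4 and Kcnh8 had -0.14, -0.12 and -0.43, with adjusted p of 0.437, 0.602 and 0.105.

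The Shaker, Shab, Shaw and Shal genes (Kcna, Kcnb, Kcnc and Kcnd), which encode the main Kv pores, had 3 of 14 tested members lower and 0 higher. The Shaw group, whose fast channels let neurons fire at high rates, held 2 of the genes that passed the test. Kcnc4 had 10.54, 7.78 and 9.34 CPM in Gas5 libraries and 16.1, 15.9 and 19.1 CPM in GFP libraries, 1.84-fold lower at an adjusted p of 0.00978. Kcnc2 had 109, 80.4 and 88.0 CPM in Gas5 libraries and 127, 146 and 157 CPM in GFP libraries, 1.55-fold lower at an adjusted p of 0.0214. Among the Gas5 libraries Kcnc2 was highest in Gas5 A. Of the 14 genes that fell, 7 had their lowest value of all 6 libraries in Gas5 A and 7 in Gas5 B. Kcnc1 had 146, 155 and 151 CPM in Gas5 libraries and 167, 167 and 169 CPM in GFP libraries, without overlap, and an adjusted p of 0.0886.

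In the Shaker group, whose channels sit in axons, Kcna6 fell. It had 9.55, 10.1 and 10.3 CPM in Gas5 libraries and 12.2, 12.9 and 14.1 CPM in GFP libraries, 1.31-fold lower at an adjusted p of 0.0292. It is measured on a minority of its span, since 68.0% is shared with another listed gene, and it was called without GFP A but lost the call when any other library was left out, with adjusted p between 0.0503 and 0.126. Kcna2 had 110, 126 and 154 CPM in Gas5 libraries and 173, 166 and 162 CPM in GFP libraries, without overlap, but an adjusted p of 0.0913. Kcna1, next to Kcna5 and Kcna6 on chromosome 6, had a log2FC of -0.15, with 95.1 CPM in Gas5 A and 122 to 130 CPM in the other 5 libraries. Kcna5 and Kcna4 had 0.13 and 0.06. Kcnb2, of the Shab type that carries slow delayed rectifier current, had a log2FC of 0.02. The Shal genes, which carry the transient current of dendrites, had 0 of 3 called by edgeR or DESeq2 and 0 at an unadjusted p under 0.05. Kcnd2, the most abundant of them, stood at 2303, 2582 and 2536 CPM in Gas5 libraries and 2539, 2718 and 2575 CPM in GFP libraries, with a log2FC of -0.08 and a standard error of 0.0740.

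The electrically silent modifiers, which join Shab channels and shift their gating, had 2 of 10 tested genes lower and 0 higher. Kcnv1 had 25.01, 27.3 and 31.6 CPM in Gas5 libraries and 41.4, 41.8 and 44.2 CPM in GFP libraries, 1.52-fold lower at an adjusted p of 0.00978. Kcnf1, whose span is all exon, had 35.5, 39.6 and 43.6 CPM in Gas5 libraries and 55.8, 57.7 and 55.2 CPM in GFP libraries, 1.42-fold lower at an adjusted p of 0.0103. In both genes the groups were separated by more than the range within either group. Kcns2, the silent gene of highest level in its subfamily, had 30.1 ± 4.31 CPM in the Gas5 group and 29.5 ± 1.36 CPM in the GFP group (SD, n = 3 each). Kcng3 had a log2FC of 0.22 and an adjusted p of 0.230. Kcng1 had 17.9 ± 3.77 CPM in the Gas5 group and 20.2 ± 2.66 CPM in the GFP group (SD, n = 3 each), which overlap, and log2FC values over the 6 other silent genes, Kcng1 among them, ran from -0.47 to -0.19.

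Several of the Kv7 genes, though not Kcnq1, encode channels of the M-current, which muscarinic receptors close. Kcnq5, the most abundant by CPM of those described here, had 2299.5, 2782 and 2561 CPM in Gas5 libraries and 2473, 2425 and 2474 CPM in GFP libraries, which overlap, with a log2FC of 0.05 and a standard error of 0.0825. Kcnq3, a subunit gene of the M-channel, had 837, 1068 and 1036 CPM in Gas5 libraries and 1111, 1237 and 1277 CPM in GFP libraries, which do not overlap, at an adjusted p of 0.126. Kcnq1, mainly a cardiac and epithelial gene, shares 45.1% of its span with other genes and stood at 5.53 CPM in the Gas5 group and 6.15 CPM in the GFP group.

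Of 8 tested pore genes in the calcium- or sodium-activated group, 1 fell. Kcnt2 encodes the sodium-activated channel Slick. It had 71.3, 68.3 and 78.9 CPM in Gas5 libraries and 92.5, 90.0 and 94.9 CPM in GFP libraries, 1.27-fold lower at an adjusted p of 0.0178. Its paralog Kcnt1, the gene of Slack, had a log2FC of -0.20 with groups that overlapped. Kcnma1, the pore of the large-conductance BK channel, had 910, 1173 and 1107 CPM in Gas5 libraries and 1242, 1367 and 1395 CPM in GFP libraries and an adjusted p of 0.0994. The small-conductance genes Kcnn2 and Kcnn3, which shape the afterhyperpolarization, had log2FC values of -0.20 and 0.14, with adjusted p of 0.0671 and 0.233. Kcnn4 had 13, 11 and 12 raw counts in Gas5 libraries and 5, 9 and 2 in GFP libraries, and an adjusted p of 0.191. Kcnu1, a testis-type relative of the BK pore, was placed in this group by family and not by its gating. It stood at 2.63 CPM in the Gas5 group and 2.23 CPM in the GFP group.

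Of 10 tested auxiliary subunit genes, 2 fell and 0 rose. Kcnmb2, a BK subunit that makes the channel inactivate, had 13.998, 13.5 and 14.5 CPM in Gas5 libraries and 18.9, 20.3 and 23.6 CPM in GFP libraries, 1.49-fold lower at an adjusted p of 0.0120. Kcnmb4, the main neuronal BK subunit, had a log2FC of -0.18 with overlapping groups. Kcnab3, a Kv beta subunit, had 2.80, 3.81 and 3.999 CPM in Gas5 libraries and 6.39, 6.38 and 5.92 CPM in GFP libraries, 1.77-fold lower at an adjusted p of 0.0178, measured outside the 33.9% of its span that it shares with an antisense gene. Kcnab1 had a log2FC of 0.01, measured on the small part of its span that is not shared, and Kcnab2 had -0.30 with an adjusted p of 0.0919. The Kcnip genes, whose calcium-binding proteins assemble with Shal channels, had 0 of 4 called by edgeR with the count filter, with 2 at an unadjusted p under 0.05, while DESeq2 and edgeR without a filter called Kcnip4. Kcnip2, the most abundant of them per unshared kilobase, had 197, 232 and 215 CPM in Gas5 libraries and 199, 203 and 182 CPM in GFP libraries. Kcnip4 had 3080, 3065 and 3049 CPM in Gas5 libraries and 3352, 3783 and 3651 CPM in GFP libraries, without overlap, and an adjusted p of 0.117.

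None of the 13 tested 2-pore-domain genes was called by edgeR with all 6 libraries and the count filter, although 10 had a negative log2FC and 6 had an unadjusted p under 0.05. Other fits did call some: Kcnk1 with DESeq2, Kcnk1 and Kcnk4 without a filter, and Kcnk1 and Kcnk3 without Gas5 B. Kcnk1, of the TWIK type, had 26.7, 33.99 and 32.9 CPM in Gas5 libraries and 37.6, 40.8 and 39.7 CPM in GFP libraries, without overlap, at an adjusted p of 0.0645. Kcnk4, the TRAAK gene, had a log2FC of -0.91 but stood at 0.668 CPM in the Gas5 group and 1.25 CPM in the GFP group, with an adjusted p of 0.0771. The TASK genes Kcnk3 and Kcnk9 had -0.24 and -0.31, with adjusted p of 0.0996 and 0.192. Kcnk2, a gene of the TREK type, had 136 ± 15.5 CPM in the Gas5 group and 155 ± 12.7 CPM in the GFP group (SD, n = 3 each), which overlap.

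**Figure D3:**
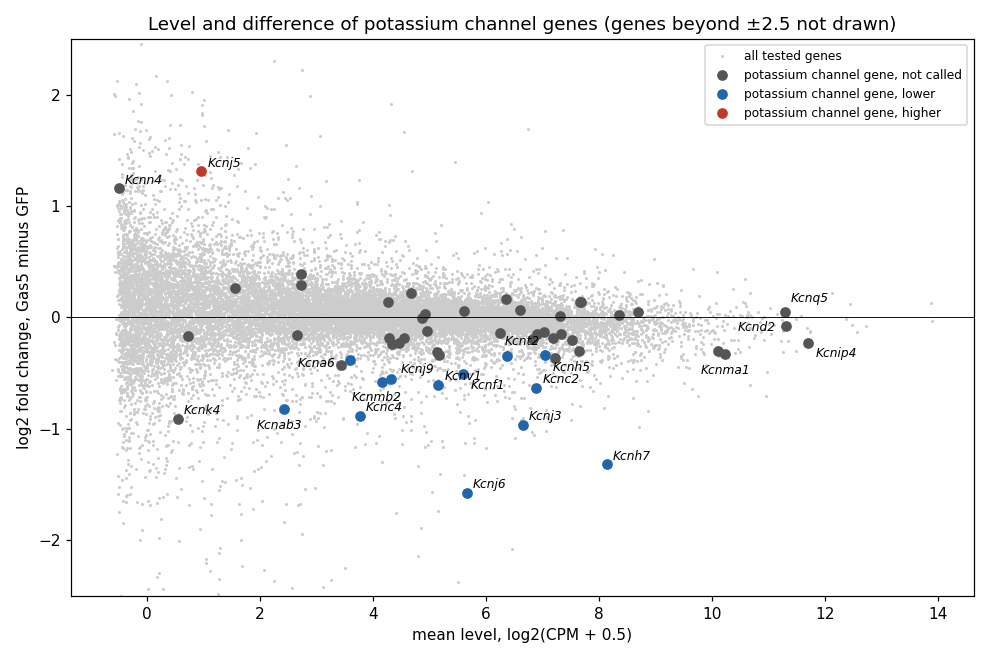
Log2 fold change (Gas5 minus GFP) against mean level as log2(CPM + 0.5), with all tested genes in grey and the potassium channel genes described in the text as large points. The most abundant of them by CPM, at the right, are Kcnip4 (-0.23), Kcnd2 (-0.08) and Kcnq5 (0.05). The largest differences are at Kcnj6, Kcnh7 and Kcnj5.

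By CPM, the level was concentrated in a few very long genes. Kcnip4, Kcnd2 and Kcnq5 together held 51.9% of the CPM of the 80 tested members, and none of them passed the edgeR threshold with all 6 libraries, though Kcnip4 did with DESeq2 and without a filter. Intronic reads enter these CPM values, which are not scaled for span. Levels were therefore also compared between genes per kilobase of span not shared with another gene. On that scale Kcna1 stood highest at 19.9 CPM per kilobase, followed by Kcna4 at 12.3, Kcna2 at 10.7, Kcnf1 at 10.002 and Kcnip2 at 8.45, all short or exon-rich genes except Kcnip2. Of these 5 genes, Kcnf1 was the 1 that passed the test. Members whose span exceeded 100 kb had 7 of 23 lower, where 10.2% of all tested genes of that span were lower. Members of 100 kb or less had 7 of 57 lower, where 2.85% of all such genes were lower.

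The 12 members that were not tested were of 2 kinds. Kcna3, Kcne3, Kcne4, Kcnj13, Kcnj15 and Kcnmb1 lie wholly inside other listed genes and had 0 counts in all libraries, as did all 12811 genes so placed, so their expression is not measured here. Kcna7, Kcna10, Kcne1, Kcne2, Kcnj1 and Kcnk16 lie outside other genes and had at most 7 counts in any library.

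Of 38 genes outside the name rule whose proteins bind or modulate these channels or move potassium, 35 were tested, 2 fell and 0 rose. That is 5.71% called lower, near the 3.94% of all tested genes. In 13 of the 35 all Gas5 libraries lay below all GFP libraries and in 0 all lay above. Over all tested genes these shares were 13.9% and 13.7%. A negative log2FC was found in 29 of the 35, and the median log2FC was -0.10. Cntn2, a cell adhesion protein that gathers Shaker channels beside the nodes of myelinated axons, had 82.6 ± 7.37 CPM in the Gas5 group and 118 ± 6.70 CPM in the GFP group (SD, n = 3 each), with an adjusted p of 0.0103 that became 0.0532 without GFP B and 0.0580 without GFP C. Rgs7, a regulator of G protein signalling that speeds the closing of GIRK channels, had 480 ± 43.3 CPM in the Gas5 group and 604 ± 32.1 CPM in the GFP group (SD, n = 3 each), with an adjusted p of 0.0452, and the call was lost when any of the 6 libraries was left out. Cntnap1, an adhesion protein of the paranode, had a log2FC of -0.49 and an adjusted p of 0.0524, which was 0.00121 with DESeq2, 0.00303 without a filter and 0.0110 without Gas5 A. Summed oligodendrocyte markers, given above, did not overlap between groups and were lower in Gas5 libraries, and their part in the values of these axonal genes was not tested. The Shal partners Dpp6 and Dpp10 had log2FC values of 0.01 and 0.13, and the potassium chloride transporter Slc12a5 had -0.11; none of these was called.

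The calls rested unequally on single libraries. Kcnj6, Kcnh7 and Kcnj3 kept an adjusted p of at most 0.0395 whichever of the 6 libraries was left out, with log2FC values from -1.75 to -1.45, from -1.45 to -1.21 and from -1.10 to -0.89. Without GFP B 5 members were called, the other 2 being Kcnc4 and Kcnv1, and without GFP C 4 were called, the other being Kcnmb2. Calls over all genes in those fits were also few, at 105 lower and 3 higher without GFP B and 88 lower and 4 higher without GFP C. Kcnh5 also lost its call without Gas5 B, and Kcnc2 without Gas5 C. All 15 kept their sign in each fit without 1 library. With the score of cortical markers (the mean log2 CPM of its markers) as a covariate, 0 members were called by edgeR, with 4 at an unadjusted p under 0.05. In that fit 0 of all 17693 genes were called. The score was 1.996, 2.67 and 2.86 in Gas5 libraries A, B and C, against 3.85, 4.34 and 4.39 in GFP libraries, so it separates the groups. In that fit 12 of the 15 kept their sign, Kcnj6 had a log2FC of -0.84 with a standard error of 0.405, Kcnc4 had -1.09 and Kcnc2 had -0.91, while Kcnh5 and Kcnj5 were among those that changed sign.

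**Figure D4:**
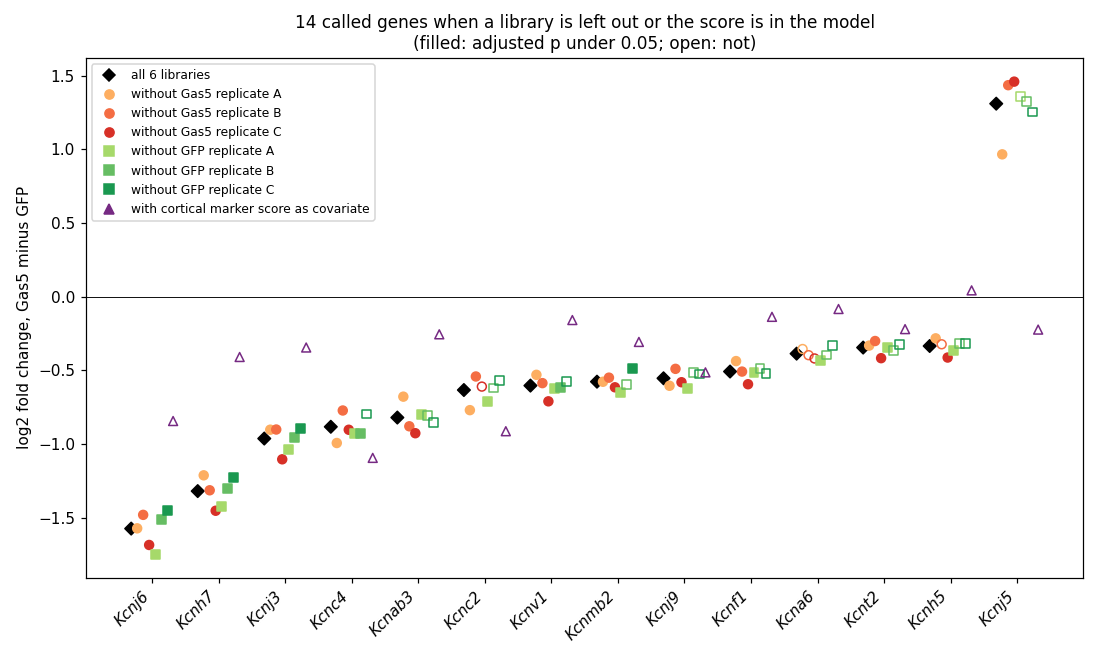
Log2 fold change (Gas5 minus GFP) of 14 called genes in all 6 libraries, without each library in turn, and with the cortical marker score added to the model; filled symbols have an adjusted p under 0.05. Kcnj6, Kcnh7 and Kcnj3 stay filled under each left-out library, and no symbol of the covariate fit is filled.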

How the data were processed

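Per the submitters' processing notes, STAR 2.7.0, featureCounts 1.5.0-p3, edgeR 3.20.9, bcl2fastq 1.8.4 and Trim Galore 0.4.4 are named, with build GRCm38.p6; the sources used here give neither annotation release nor strand setting. RNA was depleted of ribosomal RNA before library construction, per the labels' protocols. Deposited values are whole-number counts, taken over the full span of each gene per the file headers, so introns count, and reads in overlaps of listed genes are absent. Per-kilobase levels therefore use span shared with no other listed gene.

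Counts were fitted in R 4.3.3 with edgeR 4.0.16 (TMM, quasi-likelihood F-test, 2-sided, 6 libraries, genes with 10 or more counts in 3 or more libraries, Benjamini-Hochberg, threshold 0.05). Standard errors are the absolute log2 fold change over the square root of F. The common biological coefficient of variation was 8.29%. The pseudocount for log2 CPM was 0.5. Replicate letters are not shown to pair the libraries, so no block was used. GENCODE M21 supplied exons for 89 members. Alternatives used DESeq2 1.42.0 and limma 3.58.1.

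Members, partner and marker lists were chosen with earlier results of these data known. Named genes were Gas5, called members, the 10 members of smallest p, the member of highest level per unshared kilobase in each subfamily and the 3 partner genes of smallest p. Others named were chosen after their values were seen. Some members that the rule names are not reported here, though all counts include them.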

Additional observations from a re-analysis of the deposited data

How the results depend on the processing

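Over RLE scaling, upper quartile scaling, the default filter of edgeR, a filter of 1 CPM in 3 libraries and limma-voom, the counts of 14 lower and 1 higher member did not change. There were 22 lower without a filter and 22 with DESeq2, both times including the 14; Kcna2, Kcnab2, Kcnip4, Kcnk1, Kcnma1, Kcnq3 and Kcnh8 were added in both fits. With the score of cortical markers as covariate there were 0 lower and 0 higher, the median log2 fold change of members turned from -0.20 to 0.061, and Gas5 had 0.38 with an adjusted p of 1.0. Over the fits without 1 library, 4 to 15 members were lower and 0 to 1 higher (0 without any GFP library), the median ran from -0.25 to -0.14 and Gas5 from 0.33 to 0.42, with its call lost without GFP B or GFP C. Lower partner genes numbered 2, with 1 under upper quartile scaling, 5 without a filter, 7 with DESeq2, 4 with the replicate block, 0 with the covariate and 0 to 3 without 1 library. With the replicate letter as a replicate block, 19 members were lower and 2 higher, the added ones being Kcnk1, Kcnab2, Kcnma1, Kcnq3 and 2 Kcnip genes other than Kcnip4; the same-letter correlations of deviations were 0.16, 0.18 and -0.09, so the letters are not shown to pair libraries, and Gas5 C did not correlate best with its own letter. Signs changed with the covariate for Kcna1 (0.29), Kcnd2 (0.19), Kcnh3 (0.30), Kcnh5 (0.043), Kcnj4 (0.33), Kcnj5 (-0.22), Kcnk1 (0.21), Kcnma1 (0.27), Kcnmb4 (0.29), Kcnt1 (0.40), Rgs7 (0.14) and Cntnap1 (0.27), and without 1 library for Kcns2 (-0.090 to 0.11) and Kcnab1 (-0.038 to 0.053), neither of the last 2 called; the causes were not tested. With 3 libraries a group, an exact permutation test of a single gene cannot go below p = 0.1.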
